A study of Mus musculus with 35 samples.

Results

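Of the 59485 NELFA peaks deposited for mouse embryonic stem cells, 4339 (7.29%) lay deep inside protein-coding genes in parts of the genome where peaks were few, and they are described here as deep gene-interior peaks. They were chosen by measured values, namely the summit positions in the peak list itself. Each summit was autosomal, fell in a fixed 1 Mb window with under 30 peaks (called a sparse window), lay inside an annotated protein-coding gene, and was over 10 kb from the start and end of every annotated gene. Sparse windows held 23044 of the 56528 autosomal peaks, 8144 of those lay inside a protein-coding gene, and the distance rule left 4339. The number and the places of these peaks are therefore a description of the choice. Fold enrichment, width and spacing come from the same peak call, so they are also given without a test.

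The series concerned NELFA and 2-cell-like cells, the rare embryonic stem cells that switch on genes of the 2-cell embryo. Its 35 libraries included 7 chromatin immunoprecipitation (ChIP-seq) libraries from E14 mouse embryonic stem cells, grown in serum, LIF and 2i, in which doxycycline induces a Strep-HA-tagged NELFA transgene. All 7 came from cells given doxycycline at 0.4 µg/ml for 16 h: 3 immunoprecipitations with HA antibody 1, 1 with HA antibody 2, and 3 inputs, over 3 numbered replicates. The remaining libraries, 20 of RNA-seq and 8 of ATAC-seq, are not used here. Input was the only control, with no ChIP from uninduced or untagged cells, so signal of the antibodies that does not depend on tagged NELFA cannot be told apart. The labels of all 7 libraries name the same list of peaks, which holds no values per library, replicate error or read depth. How the libraries were combined for it is not stated. All intervals below are 95% intervals for counting error only, and neighbouring peaks that form 1 stretch of signal make them too narrow.

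NELFA is a subunit of the negative elongation factor, which holds RNA polymerase II in a paused state a short way downstream of promoters. Most of the sequence deep inside a long gene is intron. Introns also hold alternative promoters, enhancers and copies of transposable elements, and some families of such elements are transcribed in 2-cell-like cells. Which of these underlie the peaks was not tested. Sequence was read only in promoter windows at annotated starts, and exons and repeats were not analysed here.

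Distance from the outer ends of a gene did not keep every peak away from an annotated transcript start. Among the start sites in RefSeq promoter windows, 942 in 702 genes lay in the same kind of sequence as the peaks, over 10 kb from every gene boundary. A deep gene-interior peak had its summit within 500 bp of 28 of these (2.97%, Wilson interval 2.06 to 4.26%), which belonged to 23 genes. Windows at such starts are shown first because their letters differ between starts with and without a peak. Each is the RefSeq sequence of GRCm38.p6 (the mm10 build) from 250 bases before to 50 after the start, written 5′ to 3′ on the strand of the gene. Capitals mark the GC box with the letters GGGCGG, the box with the letters CCAAT and the box with the letters TATAAA, each searched on both strands. In Mga, Atad1, Foxp1 and Stag1 the summit lay inside the window. Tbc1d23 is shown because its start lay at the end of a long run of peaks, and Lsamp because it had many peaks but none within 5 kb of this start. These genes and the other hosts of internal starts were chosen after their values were seen.
Mga (chr2:119896978-119897277, + strand): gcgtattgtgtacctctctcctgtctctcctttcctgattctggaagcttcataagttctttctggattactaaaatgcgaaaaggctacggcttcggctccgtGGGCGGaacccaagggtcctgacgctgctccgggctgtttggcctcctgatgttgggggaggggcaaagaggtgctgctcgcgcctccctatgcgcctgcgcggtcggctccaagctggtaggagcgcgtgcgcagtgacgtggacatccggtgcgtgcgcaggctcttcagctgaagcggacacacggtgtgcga
Atad1 (chr19:32712249-32712548, - strand): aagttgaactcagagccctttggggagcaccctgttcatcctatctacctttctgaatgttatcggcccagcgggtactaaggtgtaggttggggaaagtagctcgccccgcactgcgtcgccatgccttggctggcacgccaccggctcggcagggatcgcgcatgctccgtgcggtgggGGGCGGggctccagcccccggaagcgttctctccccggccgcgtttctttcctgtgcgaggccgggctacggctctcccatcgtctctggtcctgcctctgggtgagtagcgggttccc
Foxp1 (chr6:99028249-99028548, - strand): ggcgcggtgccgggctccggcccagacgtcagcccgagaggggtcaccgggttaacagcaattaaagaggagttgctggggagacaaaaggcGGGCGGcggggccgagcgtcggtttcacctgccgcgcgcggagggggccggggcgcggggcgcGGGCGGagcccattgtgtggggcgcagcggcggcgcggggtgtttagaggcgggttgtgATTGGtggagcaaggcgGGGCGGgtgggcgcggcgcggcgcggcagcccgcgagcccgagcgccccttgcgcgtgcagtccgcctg
Stag1 (chr9:100643198-100643497, + strand): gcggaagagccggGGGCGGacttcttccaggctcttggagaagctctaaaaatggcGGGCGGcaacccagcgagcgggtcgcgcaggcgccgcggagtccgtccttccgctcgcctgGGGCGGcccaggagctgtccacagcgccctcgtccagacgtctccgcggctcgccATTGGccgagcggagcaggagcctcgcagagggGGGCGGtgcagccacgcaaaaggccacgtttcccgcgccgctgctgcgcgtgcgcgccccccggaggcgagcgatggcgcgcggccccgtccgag
Tbc1d23 (chr16:57201422-57201721, - strand): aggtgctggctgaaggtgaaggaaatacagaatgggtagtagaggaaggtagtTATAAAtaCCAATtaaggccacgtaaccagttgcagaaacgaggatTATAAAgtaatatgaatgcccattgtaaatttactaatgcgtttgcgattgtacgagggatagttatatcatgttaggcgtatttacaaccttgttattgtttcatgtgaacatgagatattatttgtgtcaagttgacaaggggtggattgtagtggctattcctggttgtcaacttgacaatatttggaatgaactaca
Lsamp (chr16:41532576-41532875, + strand): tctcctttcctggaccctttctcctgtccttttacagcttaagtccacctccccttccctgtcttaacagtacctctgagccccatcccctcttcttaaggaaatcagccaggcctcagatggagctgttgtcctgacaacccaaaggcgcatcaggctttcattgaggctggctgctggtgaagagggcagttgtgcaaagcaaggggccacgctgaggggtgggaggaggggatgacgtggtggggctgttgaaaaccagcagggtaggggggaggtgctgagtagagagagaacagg

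The Mga window, from the gene of a MAX-binding transcription factor, had 60.0% G or C and 24 CpG dinucleotides, and its peak was 657 bp wide with a fold enrichment of 3.18. Its summit fell on base 223 of the printed window, 28 bp before the start. Foxp1, which encodes a forkhead transcription factor, had 44 CpG dinucleotides, 75.3% G or C and a peak of fold 2.04 whose summit was base 196. Stag1, a cohesin subunit gene, had 43 CpG dinucleotides and a peak of fold 1.77, the lowest fold in the set. Atad1, which encodes an AAA-type ATPase, had 24 CpG dinucleotides and a peak of fold 2.13. The 2 remaining windows were poorer in CpG: Tbc1d23 had 6 at 37.3% G or C, and Lsamp had 3 at 56.3%.

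CpG content was higher at internal starts with a peak. The ratio of observed to expected CpG had a median of 0.867 at the 28 internal starts with a peak, against 0.302 at the 914 without one. A ratio of at least 0.6 was found at 23 of 28 (82.1%) with a peak and at 194 of 914 (21.2%) without one. Starts at the outer end of protein-coding genes in sparse windows gave the same order, with medians of 0.874 at the 1474 that had a peak within 500 bp and 0.519 at the 8873 that had none. Peaks were within 500 bp of 14.2% of these 10347 outer starts (Wilson interval 13.6 to 14.9%), against 2.97% of the internal ones. Several starts of 1 gene can share a peak and much of their sequence, as 4 starts of Nt5c2 did.

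**Figure D1:**
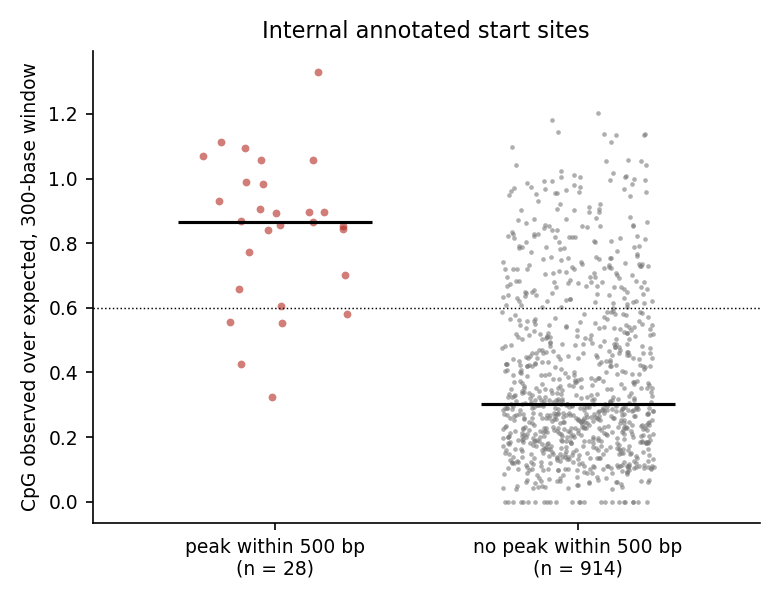
Ratio of observed to expected CpG dinucleotides in the 300-base window of each internal annotated start site, for starts with a gene-interior peak within 500 bp (left, n = 28) and without one (right, n = 914); each point is 1 start, the solid line is the median and the dotted line marks 0.6. The medians are 0.867 and 0.302, and the 2 sets overlap.

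The GC box, the letters bound by Sp-family factors, occurred in 20 of the 28 windows with a peak (71.4%), in 249 of the 914 without one (27.2%), and in 35.7% of all 32851 promoter windows in the RefSeq table. The TATA box occurred in 1 window with a peak and 133 without (14.6%), beside 13.6% of all windows. CCAAT occurred in 4 windows with a peak (14.3%) and 335 without (36.7%), beside 37.4% of all windows. CACGTG (E-box), TGACGTCA (the cyclic AMP response element) and CCGGAAGT (an ETS-type site) were in none of the 28 windows with a peak, and in 44, 8 and 13 of the 914 without one. Among all windows these letters were found in 7.15%, 1.79% and 3.89%. At such rates, 28 windows are too few to show a difference for these letters. Windows of outer starts with a peak held them in 13.8%, 4.55% and 9.57%, against 7.81%, 2.30% and 5.57% without one. CCAAT was in 36.3% of outer windows with a peak and 40.4% without. The GC box (73.9% and 43.7%) and the TATA box (6.92% and 15.6%) kept their order there. None of the 6 motifs contains another, and the GC box holds a CpG itself, so its share moves with CpG content.

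In all, 26 of the 4339 peaks (0.599%) lay within 500 bp of an internal start. That is 30.0 peaks per Mb of such sequence (Poisson interval 19.6 to 43.9), against 8.17 per Mb in the rest of the eligible interior (7.93 to 8.42). No peak lay between 500 bp and 1 kb from an internal start, and 11 lay between 1 and 2 kb. The peaks at internal starts were of ordinary strength, with a median fold of 2.04 (range 1.77 to 3.36), and only those at Tbc1d23 and Mga reached 3. Their hosts included further regulators of transcription and signalling. Rbpj, the DNA-binding effector of Notch signalling, had a peak of fold 1.95, and Zbtb38, which encodes a methyl-CpG-binding zinc finger protein, had one of 2.04. Lifr, the receptor for the LIF in the medium, had one of 1.91, and Bcl9, a cofactor of beta-catenin, one of 2.00.

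Most deep gene-interior peaks were weak and narrow. Their median fold enrichment, the ratio to the control that the authors' peak caller gave each peak, was 2.09, with quartiles of 1.95 and 2.50. The median was 2.09 for the 9399 peaks of sparse windows that lay outside all genes and over 10 kb from every gene boundary (called desert peaks), 2.13 for the 2917 peaks of sparse windows within 1 kb of a boundary, and 2.09 for the whole list. These medians can coincide because the values were coarse. The 4339 peaks took 158 distinct fold values, 228 of them had the median value itself, and 99.1% lay within 0.0001 of a multiple of 0.0454. With 1 step shared by nearly all peaks, the folds on that step cannot be read as ratios to the input at each place. The few peaks off the step included some of the strongest named below, among them those of Cntnap5c, Gphn and Camk1d, while that of Foxj3 lay on it. Whether folds off the step are on the same scale was not tested, so ranks that mix both kinds are uncertain. Median width was 161 bp, against 160 bp for desert peaks and 170 bp for the whole list.

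The upper end of the distribution held more of the difference. A fold of at least 3 was given to 561 gene-interior peaks (12.9%, Wilson interval 11.96 to 13.96%), against 10.4% of desert peaks (9.80 to 11.04%) and 12.2% of boundary peaks (11.03 to 13.4%). For all deposited peaks the share was 14.2%, so the gene-interior share was not above the background of the list. A fold of at least 5 was given to 117 (2.70%, 2.25 to 3.22%), against 1.54% of desert peaks (1.31 to 1.81%) and 1.89% of boundary peaks (1.45 to 2.45%). The whole list had 3.0%, again no lower than the gene-interior share. At a fold of at least 10 there were 17 gene-interior peaks (0.392%, 0.245 to 0.627%), 22 desert peaks (0.234%, 0.155 to 0.354%) and 3 boundary peaks (0.103%, 0.0350 to 0.302%), where the first 2 intervals overlap.

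**Figure D2:**
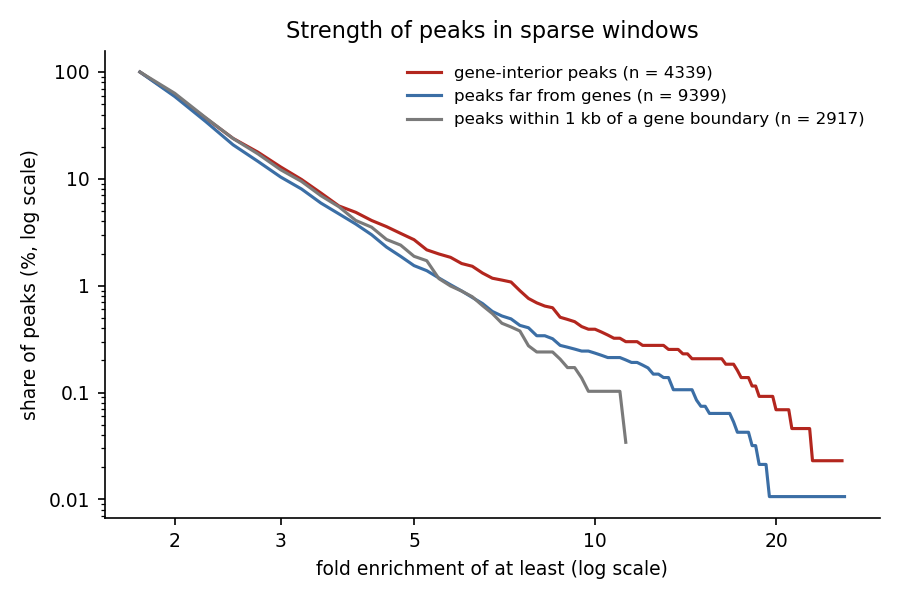
Share of peaks in sparse windows (y axis, %, log scale) at or above each fold enrichment (x axis, log scale) for deep gene-interior peaks (red), desert peaks far from genes (blue) and peaks within 1 kb of a gene boundary (grey). The 3 curves start together; at a fold of 5 they stand at 2.70%, 1.54% and 1.89%.

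The 10 strongest gene-interior peaks lay in 10 different genes, and 9 of them had no other peak within 5 kb. The highest fold, 25.98, was in Cntnap5c, and the fourth highest, 19.96, was in Cntnap5b. Both belong to the contactin-associated family of neuronal adhesion proteins. Gphn, which encodes the gephyrin scaffold of inhibitory synapses, had a peak of fold 22.8 at chr12:78350887-78351151, 133.7 kb from the 5′ end of a 467.4 kb gene. Camk1d, a calcium/calmodulin-dependent kinase gene, had one of 21.2. The peaks of Greb1, an estrogen-responsive gene (fold 18.7), and Kcnh1, a voltage-gated potassium channel gene (18.1), were only 82 and 78 bp wide. Jarid2, which encodes a subunit of Polycomb repressive complex 2, followed with 17.3, and Lama1, the laminin alpha-1 chain, with 17.2. Foxj3, a forkhead factor gene, had 16.4 and a second peak of fold 1.91 within 5 kb, and Peak1, a pseudokinase gene, had 14.3.

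Most peaks of this strength had no close neighbour, and their median width of 321 bp was above the 161 bp of the whole set. Of the 17 with a fold of at least 10, 1 had another peak within 5 kb, 8 were under 300 bp wide and the widest was 1086 bp. Among the 117 with a fold of at least 5, 40 had another peak within 5 kb. That share was not counted for all gene-interior peaks. Median width of gene-interior peaks rose with fold up to a fold of 5 and was lower in the classes above. The median width was 87 bp at a fold under 2, 226 bp from 2 to 3, 513.5 bp from 3 to 5, 495 bp from 5 to 10 and 321 bp at 10 and above. Desert peaks had 87, 221, 489, 547 and 362.5 bp in the same classes. Significance rose with fold across the classes, from a median −log10 q of 2.10 at a fold under 2 to 377 at 10 and above. Single peaks could depart from that order, as 2 peaks off the common step of fold values did. In Chl1, a neural adhesion gene named after its values were seen, a 196 bp peak had a fold of 5.73 and a −log10 q of 17905, the highest in the set, while the Cntnap5c peak had a −log10 q of 902.

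Gene-interior sequence held fewer peaks per length than the deserts. Counted over the 528.8 Mb that could have held one, there were 8.21 deep gene-interior peaks per Mb (Poisson interval 7.96 to 8.45). Desert sequence had 12.2 per Mb over 770.0 Mb (11.96 to 12.5), although assembly gaps, which can hold no peak, were not taken out of it. The ratio was 0.672 (0.648 to 0.697). The density changed little with depth inside the gene. The density was 8.67 peaks per Mb at 10 to 20 kb from the nearest boundary (8.19 to 9.16) and 8.43 beyond 200 kb (7.30 to 9.69), with 7.72 to 8.28 in the 3 classes between.

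Position along the transcript could be read in the 5787 of 7350 eligible genes that had a strand in the RefSeq promoter table. With each gene cut into 3 equal parts, the part at the 5′ end held 8.51 peaks per Mb (8.00 to 9.04), the middle part 8.02 (7.60 to 8.46) and the part at the 3′ end 7.47 (6.99 to 7.97). In genes of at least 100 kb, sequence 10 to 50 kb from the 5′ end held 8.40 per Mb (7.63 to 9.24), against 7.62 (6.88 to 8.42) at the same distance from the 3′ end. Those 2 intervals overlap.

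Chromosomes 6 and 8 stood apart. Their gene interiors held 16.4 per Mb (14.3 to 18.7) and 18.3 per Mb (16.0 to 20.9), against 5.61 to 8.95 on the other 17 autosomes. Of the windows with any peak, 66.1% on chromosomes 6 and 8 held 30 or more and so dropped out, against 7.9% on the others. The 453 gene-interior peaks of chromosomes 6 and 8 were weaker. Their median fold was 1.95 and 7.06% reached a fold of 3 (5.04 to 9.80%), against 2.13 and 13.6% (12.6 to 14.7%) for the 3886 on the other autosomes. Copy number and depth by chromosome were not measured here, and their part in this was not tested.

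**Figure D3:**
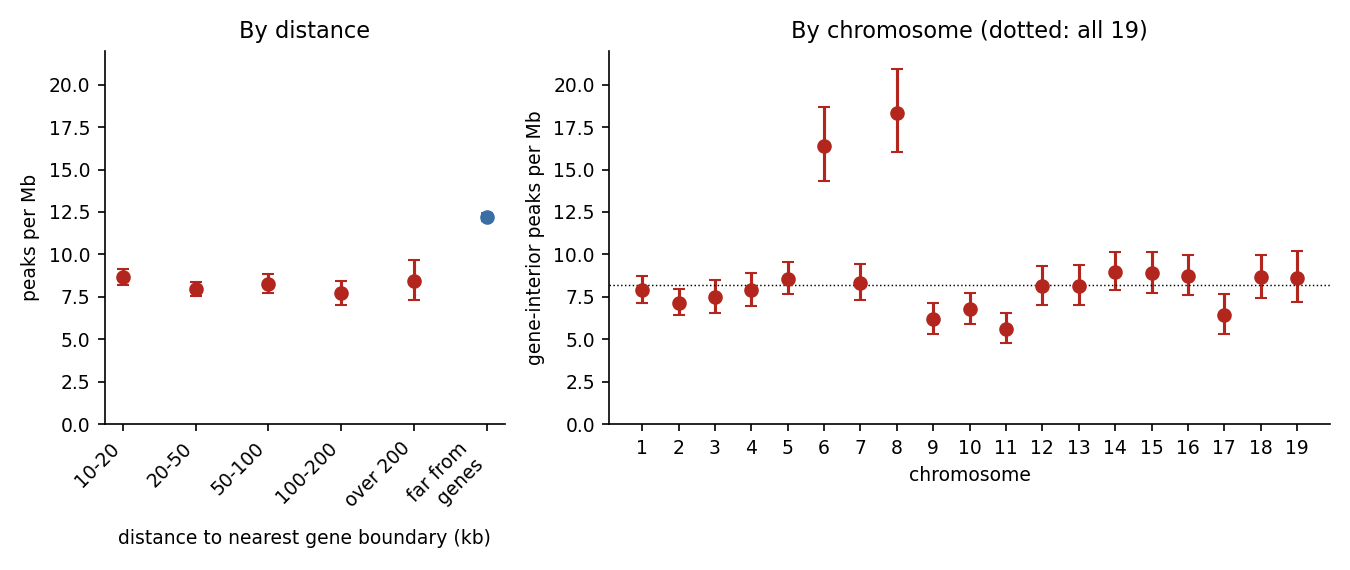
Peaks per Mb of eligible sequence with 95% Poisson intervals. Left, deep gene-interior peaks (red) by distance to the nearest gene boundary, with desert peaks (blue) last; right, deep gene-interior peaks by chromosome, with the value of all 19 dotted. Chromosomes 6 and 8 stand at 16.4 and 18.3, above the other 17.

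The peaks were spread over many genes. Of 7350 protein-coding genes with eligible interior sequence, 1506 (20.5%) held at least 1, and 704 of those held exactly 1. There were 525 genes with 2 to 4 peaks, 200 with 5 to 9 and 77 with 10 or more, and the last group held 985 peaks. The 77 include Gm37013, Gm38666 and Gm38667, which overlap and share the same 10 peaks. The share of genes with a peak followed the length they offered. Among genes with up to 10 kb eligible, 3.13% held a peak (2.43 to 4.01%), against 45.2% at 100 to 200 kb (41.6 to 49.0%) and 92.5% at over 500 kb (87.0 to 95.7%). Across the 7350 genes, peak number and eligible length had a Pearson r of 0.59 and a Spearman rho of 0.47. Genes share the list and are not independent.

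The 10 genes with the most peaks were led by Cntnap2 with 32 in 1798.5 kb of eligible sequence, a neurexin-family gene of axon membranes. Csmd1, which encodes a membrane protein that regulates complement, had 24, and Wwox, an oxidoreductase gene at a common fragile site, had 22. Fam155a, whose product accompanies the NALCN sodium leak channel, Lsamp, a neuronal adhesion gene, Myo5b, a vesicle-transport myosin gene, and Naaladl2 had 21 each. Rhbdd1, a rhomboid protease gene, had 19, and Grm5, a metabotropic glutamate receptor gene, and Galntl6, a gene of the GalNAc-transferase family, had 18 each. Of these 10 genes, 5 are on chromosomes 6 and 8 (Cntnap2, Csmd1, Wwox, Fam155a and Galntl6). Most of their peaks were weak: the 32 in Cntnap2 ranged in fold from 1.77 to 3.99 with a median of 1.95.

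These counts came about in different ways. In Cntnap2, 29 of the 32 peaks stood outside any run of at least 3 peaks with neighbouring summits at most 2 kb apart. In Rhbdd1 all 19 peaks belonged to 2 such runs, and in Myo5b 19 of 21 belonged to 1. Lsamp had 16 of 21 peaks in 4 runs, and Wwox had 18 of 22 outside runs. A count of peaks in a gene is therefore not a count of separate places.

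**Figure D4:**
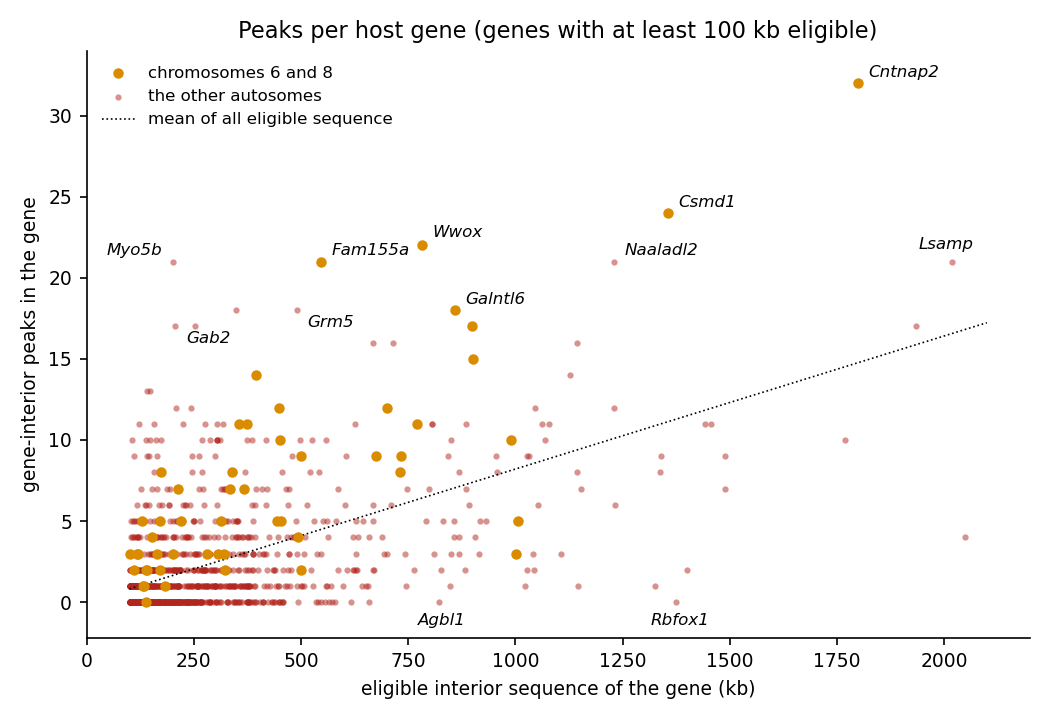
Number of deep gene-interior peaks (y axis) against eligible interior sequence (x axis, kb) for genes with at least 100 kb eligible, each point 1 gene; orange marks genes on chromosomes 6 and 8 and the dotted line is the mean of 8.21 per Mb. Cntnap2 is highest with 32, and Myo5b reaches 21 with 201.6 kb; Rhbdd1, with 78.6 kb, is not plotted.

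Ranked by peaks per Mb, among the 211 genes with at least 200 kb eligible and at least 4 peaks, Myo5b came first with 104 per Mb (64.5 to 159). Gab2, a signalling adaptor gene, followed with 82.0 (47.8 to 131), Itgbl1, an integrin-beta-like gene, with 67.0 (39.0 to 107), and Ryr3, a ryanodine receptor gene, with 57.9 (29.9 to 101). Snx29, a sorting nexin gene, had 51.8, Rptor, the Raptor subunit of mTOR complex 1, 49.4, Ankrd44, an ankyrin-repeat gene, 49.2, and Tanc2, a postsynaptic scaffold gene, 39.9. Fam155a had 38.4 and Ust, a uronyl sulfotransferase gene, 37.1. In 7 of these 10 genes at least 9 peaks sat in 1 run, the exceptions being Itgbl1, Fam155a and Ust.

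Some very long genes held none. Of 619 genes with at least 200 kb eligible, 153 had no peak, and of those with over 500 kb, 11 had none. The longest of them, named after the values were seen, was Rbfox1, a neuronal splicing regulator gene, with 1374.4 kb. A count of 0 there allows up to 2.18 peaks per Mb, taken as a one-sided limit of 3 counts over the eligible length. Agbl1, a tubulin deglutamylase gene, was next with 821.7 kb, where 0 allows up to 3.65 per Mb.

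Neighbouring peaks formed runs, and at a spacing of up to 2 kb a minority of the runs (13.8%) fell in 1 narrow class of span. Runs of at least 3 gene-interior peaks with neighbouring summits at most 2 kb apart numbered 298 and held 1472 of the 4339 peaks (33.9%), while 2205 peaks (50.8%) had no gene-interior peak within 2 kb. Desert peaks had 706 runs with 35.3% of the peaks. The median span, from the start of the first peak to the end of the last, was 2932 bp, against 2798 bp in deserts. A class of 6.0 to 6.4 kb, chosen after the spans were seen, held 41 runs (13.8%, Wilson interval 10.3 to 18.1%), while 6 runs spanned 5.6 to 6.0 kb and 4 spanned 6.4 to 6.8 kb. Of the 41, 34 measured 6.1 to 6.3 kb. The class depends on the spacing allowed: with neighbouring summits at most 1 kb apart 1 of 219 runs fell in it (0.457%), and at most 3 kb apart 60 of 326 did (18.4%). In 40 of the 41 runs at least 1 gap between neighbouring summits was over 1 kb (95 of 285 gaps in all). Desert runs had the same class, with 79 of 706 (11.2%, 9.07 to 13.7%).

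The 41 runs lay in 40 hosts on 16 chromosomes and held 326 peaks, 7.51% of the set. Their outermost peaks were the strongest. The median fold of the first and last peaks was 3.31, against 2.27 for the peaks between them, and in 28 of 41 runs (68.3%) both ends exceeded every inner peak. Among runs of 3 to 6 kb that held for 19 of 85 (22.4%). In the desert runs of 6.0 to 6.4 kb it held for 53 of 79 (67.1%), with medians of 3.36 at the ends and 2.18 between them. With each run cut into 10 equal parts, the first and last part had median folds of 3.22 and 3.20, and the parts between them 2.11 to 2.50. No other peak lay within 2 kb of any of the 41 runs.

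Single runs show the pattern. Zcchc24 had 9 peaks over 6227 bp, with a first peak of fold 5.36, a last of 5.22 and a median of 2.09 between. Bicc1, which encodes an RNA-binding protein, had 6 peaks over 6293 bp with ends of 4.22 and 4.81 and 2.27 between. Thsd7b had 7 over 6255 bp with ends of 4.27 and 4.13, and Arid4a, a chromatin-regulator gene, 8 over 6236 bp with ends of 4.22 and 4.13. In Tbc1d23, a TBC-domain gene, 7 peaks covered 81.1% of 6198 bp and both end peaks had a fold of 3.36. The internal start printed above lay beside the first of them, and 2 peaks of this run were within 500 bp of it. Abca13, an ABC transporter gene, was an exception, with ends of 2.13 and 2.09 and 2.36 between. These hosts were named after their values were seen. What the runs share in sequence was not tested.

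**Figure D5:**
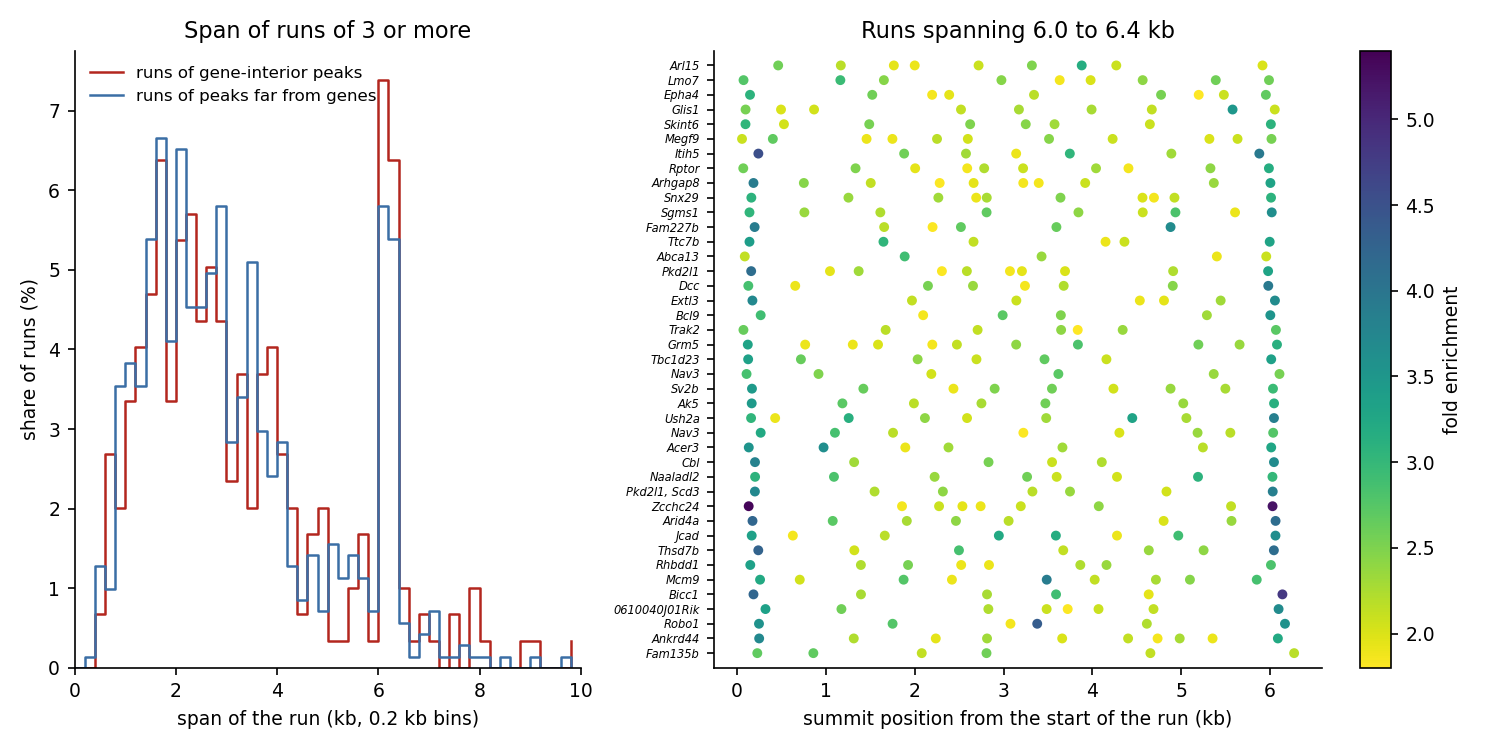
Left, share of runs of at least 3 peaks (y axis, %) by span (x axis, kb, bins of 0.2 kb) for deep gene-interior peaks (red) and desert peaks (blue). Right, the 41 gene-interior runs of 6.0 to 6.4 kb, 1 per line with its host, each point a summit at its distance from the run's start and coloured by fold enrichment; the end peaks have a median fold of 3.31, the inner ones 2.27.

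The longest run was in Myo5b, with 19 peaks over 12620 bp, a first peak of fold 3.68 and a last of 4.54. In Gab2, 12 peaks over 6866 bp ended in one of fold 8.71 and began with one of 1.91. Ryr3 had 12 peaks over 9837 bp, the first of fold 5.04 and 1613 bp wide. At the other end of the scale, the 3 closest summits of the set lay within 239 bp in Slc9a9, a sodium/proton exchanger gene, with folds of 2.00, 1.91 and 1.95. In Ccser1, in 2 places of Snx29 and in Dlgap1, a postsynaptic scaffold gene, 3 summits lay within 357 to 361 bp, all with folds of 1.77 to 2.18.

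Groups of genes were set beside all eligible genes, 20.5% of which held a peak, at 8.21 peaks per Mb. Longer genes hold peaks more often, so the median eligible length of each group is given with its share (28.0 kb for all eligible genes). Density also differed with length. It was 12.6 per Mb in genes with up to 10 kb eligible (10.4 to 15.2), 8.02 to 8.58 in the 4 classes from 10 to 500 kb, and 7.44 above 500 kb (6.96 to 7.93). The first class rests on few places, as only 59 of its 1888 genes held a peak. Its overlapping genes Prn and Prnp, named after the values were seen, both counted the same 8 peaks. Among neuronal adhesion and axon guidance genes, 52 of 61 held a peak (85.2%) at a median eligible length of 668 kb and 7.34 per Mb (6.56 to 8.18), beside the 7.44 of all genes with over 500 kb. Without chromosomes 6 and 8 this group had 6.13 per Mb (5.35 to 6.99), beside 7.73 for all eligible sequence (7.49 to 7.98). Besides Cntnap2 and Lsamp, Nrg1, an ErbB ligand gene, had 17 and Nkain2, a gene for a sodium pump-interacting protein, 16. Kirrel3, an adhesion gene with 439.7 kb eligible, and Sema5a, a guidance gene with 431.5 kb, had none. Ion channel and transmitter receptor genes gave 35 of 54 (64.8%) at 324 kb and 7.67 per Mb (6.52 to 8.96). Grm5 led with 18, followed by Grm7 with 15, Ryr3 with 12 and Gabrg3, a GABA-A receptor subunit gene, with 10. Cacna1e, a calcium channel gene, and Ryr2 had none.

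Genes of large common fragile sites gave 22 of 24 (91.7%) at 1014 kb and 8.40 per Mb (7.30 to 9.62), led by Csmd1, Wwox, Naaladl2 and Lrp1b, an LDL-receptor family gene with 17 peaks and one of fold 8.70. Npas3, a neuronal transcription factor gene, and Esrrg, an orphan nuclear receptor gene, had none. Second-messenger genes gave 27 of 37 (73.0%) at 263 kb and 8.39 per Mb (6.75 to 10.3), with 14 peaks in Pde4d and 9 in Pde1c, both phosphodiesterase genes, and none in Pde7b or Camk2d. A list headed muscle and dystrophin complex gave 16 of 29 (55.2%) at 179 kb and 10.5 per Mb (8.37 to 13.0). Of its 83 peaks, 45 lay in 5 of its 9 genes of unconventional myosins, a family that is mostly not specific to muscle, at 22.2 per Mb (16.2 to 29.7). Myo5b had 21, of which 19 belonged to 1 run, Myo16 had 14 and Myo3b had 8. Myo16 is on chromosome 8, where gene interiors held 18.3 per Mb. The density of these myosin genes thus rests largely on 1 stretch and on 1 gene of a dense chromosome. The other 20 genes, separated after the values were seen, had 38 peaks in 11 genes at 6.47 per Mb (4.58 to 8.88). Among them Sgcd, the delta-sarcoglycan gene, had 8 and Dtna, the alpha-dystrobrevin gene, none. Matrix and matrix receptor genes gave 24 of 45 (53.3%) at 186 kb and 6.48 per Mb (5.14 to 8.06). Thsd7a and the glypican gene Gpc6 had 11 each, and Lama2, a laminin gene, had none in 565.8 kb.

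The lowest densities were counted in regulatory genes, although the interval for chromatin and transcription regulators overlaps that of matrix genes. Chromatin and transcription regulators gave 17 of 54 (31.5%) at 111 kb and 5.399 per Mb (3.92 to 7.25), with 12 peaks in Hdac9, a histone deacetylase gene, 5 in Foxp1, and none in Tcf4 or Cux1. Pluripotency and embryonic signalling genes gave 9 of 41 (21.95%) at 72.2 kb and 2.51 per Mb (1.25 to 4.49), the lowest density of the 8 groups. Their 11 peaks included 3 in Mapk10, a stress kinase gene, and 1 each in Ror2, a Wnt receptor gene (fold 4.72), Tcf7l2, a Wnt effector gene (3.00), and Tgfbr3, a TGF-beta co-receptor gene (2.81). Fat3, an atypical cadherin gene, had none in 572.5 kb, and Bmpr1b, a BMP receptor gene, none in 312.4 kb. Without chromosomes 6 and 8 these groups had 5.13 (3.61 to 7.08) and 2.34 per Mb (1.12 to 4.30), beside 7.73 for all eligible sequence (7.49 to 7.98). Of the other 6 groups, only the muscle list, at 9.84 (7.58 to 12.6), lay above that value. Matrix genes had 5.33 (4.09 to 6.84) and neuronal adhesion genes 6.13 (5.35 to 6.99). Ion channel genes had 6.60, fragile-site genes 7.16 and second-messenger genes 7.17, with intervals that include 7.73. A density below that of all eligible sequence was therefore not particular to regulatory genes, and chromatin regulators were close to matrix genes.

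Peaks on either side of the limits had similar values. Just inside the 10 kb limit lay peaks of fold 2.09 in Ankrd22 at 10018 bp, of 2.18 in the overlapping Gm37013, Gm38666 and Gm38667 at 10021 bp, and of 1.95 in Gpc6 at 10027 bp. Just outside it lay peaks of 2.77 in Dnajc5b at 9994 bp, of 2.00 in Tm4sf1 at 9989 bp and of 2.68 in Gm5709 at 9979 bp. The 299 gene-interior peaks 10 to 12 kb from a boundary and the 313 peaks 8 to 10 kb from one both had a median fold of 2.13. At the window limit, the 448 peaks in windows of 25 to 29 peaks had a median fold of 2.04, and 12.5% reached 3, while 268 peaks in the same kind of place in windows of 30 to 34 had 2.13 and 15.7%.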

How the data were processed

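The authors deposited 1 peak list for the 7 ChIP-seq libraries, in narrowPeak layout without a header. Trim Galore 0.4.2, Bowtie2 2.2.9, SAMtools 1.4, MACS2 (no version) and mm10 are named per the submitters' processing notes. Call settings, the combination of libraries and the handling of multiply aligned reads were not given in the sources used here. Peak names carry the tags R1234 and MAPQ0, which are not explained there. For each peak the deposited list gives a score (not used), a fold enrichment that is a linear ratio, and significance as −log10 p-value and −log10 q-value, all by the authors' peak caller; the lowest −log10 q is 1.31. Fold was used only to describe and rank peaks within the list. Read depth is unknown, and the list holds no value for a single library.

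Summits were taken from the deposited offsets, and genes from the RefSeq table of GRCm38.p6 (49939 genes on chromosomes 1 to 19, X and Y), which gives neither strand nor exons. Strand and internal starts came from 32851 RefSeq promoter windows, which do not cover every gene. Coordinates are counted from 1. Eligible sequence is what could hold a gene-interior peak. Shares carry Wilson, densities exact Poisson and medians order-statistic intervals; no test was run. Peaks inside 2 or more overlapping genes (39) count for each of them. The peaks and the 8 gene lists were chosen with earlier results of these data known. Named are the 10 peaks of highest fold, the 10 genes with most peaks, the 10 with most per Mb (at least 200 kb eligible and 4 peaks), up to 4 genes per list with most peaks and up to 2 of the longest with none, 3 peaks on each side of the 10 kb limit and the 5 closest groups of 3. Alternatives changed the distance, window, annotation, interval, significance, fold and chromosomes. The classification was tested on simulated data. The sequence at summits was not analysed here. Work was done with scipy 1.17.1, pandas 2.3.3 and numpy 2.4.6 in Python 3.11.15, and plots with matplotlib 3.10.9.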

Additional observations from a re-analysis of the deposited data

How the results depend on the processing

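With 1 list and no column for a library, no replicate could be left out. No paired analysis was possible because the list carries no replicate numbers and no result comes from a test. Weak peaks set most values. With −log10 q of at least 4, 1748 peaks remained at a median fold of 2.63, a share of 32.1% at fold 3 or more, a median width of 350 bp, 3.31 per Mb, a ratio to the deserts of 0.712 and 12.8% of genes with a peak; with folds at or above the list's median these were 2345, 2.45, 23.9%, 290 bp, 4.43, 0.697 and 15.2%. Without chromosomes 6 and 8 the width was 170.5 bp, the density 7.73 per Mb and the ratio 0.647. A distance of 5 kb gave a ratio of 0.639 and 18.0% of genes; 20 kb gave a width of 157 bp and 24.5%. Windows under 20 peaks gave 6.80 per Mb; windows under 50 gave 9.40 per Mb and 21.4% of genes. Protein-coding boundaries alone gave 21.9% of genes. The ratio to the deserts was below 1 in all 10 alternatives. Chosen after the data were seen, a gap of 1 kb left 1 of 219 runs at 6.0 to 6.4 kb (0.457%), since 40 of the 41 runs hold at least 1 gap over 1 kb, and a gap of 3 kb gave 60 of 326 (18.4%); the muscle list without its unconventional myosin genes had 6.47 per Mb. The share of internal starts with a peak moved by less than its interval at 250 and 1000 bp. The unknown depth limits what can be said of single weak peaks.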
